A study of Tachysurus fulvidraco x Tachysurus vachelli with 6 samples.

Results

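The 5 genes described here, LOC113635019, LOC113635022, LOC113635023, LOC113635024 and LOC113635025, are annotated as C-C motif chemokine 3-like or 18-like and lie close together on scaffold NW_020848173.1. They were chosen by gene name, with their transport-against-control values already known, as 5 of the 2451 complete gene rows in the deposited table. All 5 were among the 1620 genes that were tested, those whose FPKM averaged 0.5 or more across the 6 libraries. FPKM is a fragment count corrected for the length of the transcript and for the sequencing depth. Because the genes were picked for this contrast, their values are given below as a description, and no test of transport against control is reported for any of them.

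Skin mRNA was sequenced in 3 transport libraries, from fish kept under simulated transport for 16 h, and in 3 control libraries. All fish were juvenile hybrids of a Tachysurus fulvidraco female and a P. vachellii male, and skin was taken from the left flank behind the dorsal fin. According to the methods, the experimental fish were fasted before the treatment, and transport was simulated in sealed bags of water and oxygen on a shaking device. Control fish came from the recirculating aquaculture system, and the methods do not state whether they were fasted. The study calls the libraries biological replicates, but the sources used here do not say whether a library held 1 fish or a pool, so p-values measure only the spread between these libraries.

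C-C chemokines are small secreted proteins, named for a pair of adjacent cysteines, that attract leukocytes through G-protein-coupled receptors. In mammals CCL3 is released mainly by activated macrophages and draws in monocytes and lymphocytes, and CCL18 is a close relative of CCL3 known from primates. The names of the catfish genes therefore state a resemblance and not a shown orthology. In fish, as in mammals, C-C chemokine genes often lie in tandem arrays of near-identical copies. The table annotates all 5 genes to chemokine activity, CCR chemokine receptor binding, and monocyte, neutrophil and lymphocyte chemotaxis.

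All 5 genes had a lower mean level after transport than in control skin, and 4 of the 5 had no overlap between the groups. For LOC113635024 the nearest libraries of the groups had deposited counts of 18 after transport and 19 in controls. The mean FPKM after transport was 0.0904 to 0.369 of the control mean. Over all tested genes, 3.7% had groups that did not overlap and were lower after transport, and 24.1% had groups that did not overlap and were higher. Since the rule used this contrast, the count of 4 is printed beside that background only for orientation. With FPKM divided by the scaling (TMM) factors of the fit, all 5 genes had groups that did not overlap, against 10.9% of tested genes lower and 13.0% higher.

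**Figure D1:**
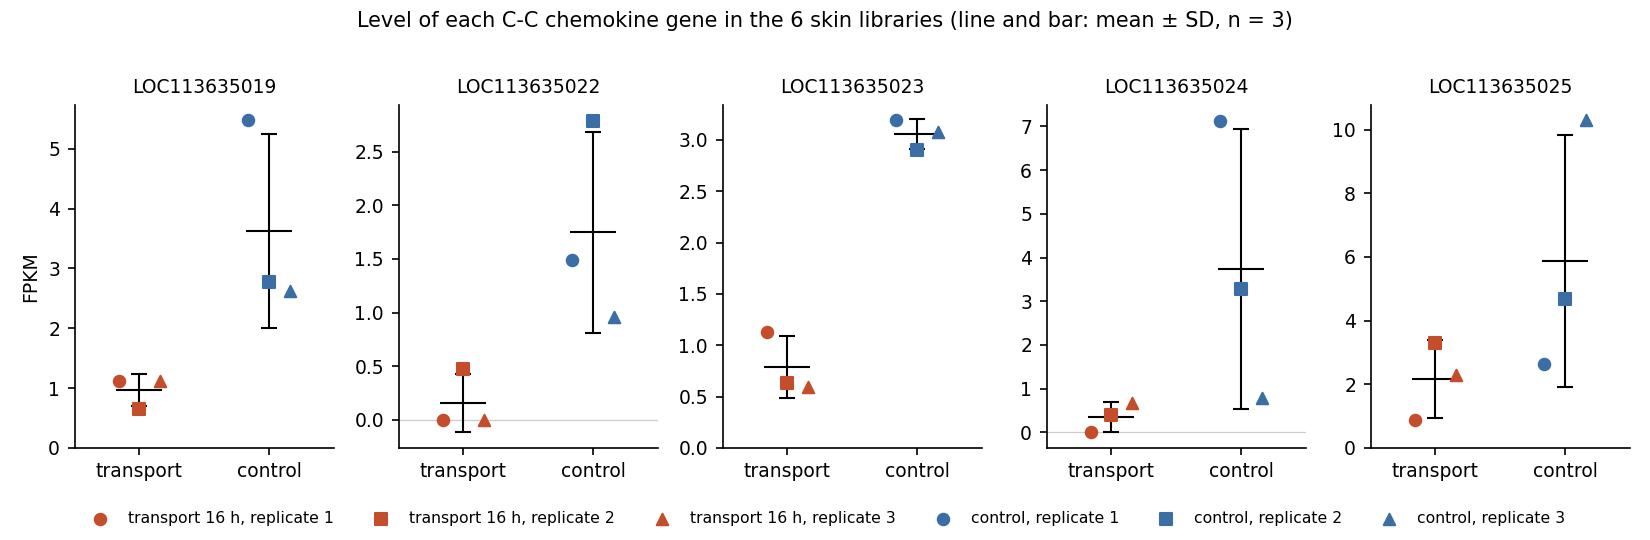
FPKM of each gene in the 3 transport libraries (left, red) and the 3 control libraries (right, blue), with the mean and SD of each group in black and a separate vertical scale for each gene. The groups were apart for every gene except LOC113635025, whose transport replicate 2 at 3.31 lay above control replicate 1 at 2.63.

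LOC113635019, a 3-like gene with 2 coding transcript records and 1 non-coding record, lies on the minus strand at 435864 to 440460. It had 1.12, 0.652 and 1.12 FPKM in transport replicates 1, 2 and 3, against 5.49, 2.77 and 2.62 FPKM in control replicates 1, 2 and 3. The groups did not overlap, and control replicate 1 stood above the other controls. The means were 0.966 ± 0.272 FPKM after transport and 3.63 ± 1.61 FPKM in controls (SD, n = 3 each). The fitted log2 fold change was -2.36 (SE 0.55) from edgeR, and it was -1.62 without control replicate 1.

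LOC113635023 begins 1647 bases further on, at 442108 to 458689 on the minus strand, and is the longest of the loci. Its 3 coding transcript records carry both descriptions, 18-like and 3-like, so it belongs to neither name alone. It had 1.13, 0.629 and 0.590 FPKM after transport and 3.19, 2.90 and 3.08 FPKM in controls. The control libraries were closer together than for any other of the 5 genes, with a coefficient of variation of 4.77%, but the spread was 25.0% once FPKM was divided by the TMM factors. The log2 fold change was -2.30 (SE 0.41), the smallest standard error of the 5.

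LOC113635024, a 3-like gene of a single transcript record at 484123 to 484957 on the plus strand, had the widest fold range between control libraries of the 5. It was listed at 0 in transport replicate 1 and had 0.388 and 0.661 FPKM in transport replicates 2 and 3, against 7.13, 3.29 and 0.775 FPKM in the 3 controls. The groups did not overlap, but only a narrow gap separated transport replicate 3 from control replicate 3, with deposited counts of 18 and 19. The controls spanned a 9.20-fold range, with control replicate 1 highest. The log2 fold change was -3.84 (SE 1.36), and it was -2.63 without control replicate 1.

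LOC113635022, an 18-like gene at 488341 to 493901 on the minus strand, had the lowest mean level of the 5 in both groups. It was listed at 0 in transport replicates 1 and 3 and had 0.474 FPKM in transport replicate 2, against 1.49, 2.79 and 0.959 FPKM in controls. Transport replicate 2 was the only transport library with any reads, and it was still below the lowest control. With 3 read pairs as the limit that a count of 0 allows, the libraries at 0 could have held up to 0.475 and 0.396 FPKM. The log2 fold change was -3.73 (SE 1.40). No value is given without transport replicate 2, where the remaining transport libraries were at 0.

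LOC113635025, an 18-like gene at 497603 to 502779 on the minus strand, had the highest mean level in both groups and the smallest fold change between them. It had 0.889, 3.31 and 2.30 FPKM after transport and 2.63, 4.69 and 10.3 FPKM in controls. Transport replicate 2 lay above control replicate 1, so the groups overlapped. The means were 2.17 ± 1.22 FPKM after transport and 5.88 ± 3.97 FPKM in controls (SD, n = 3 each), and the log2 fold change was -1.62 (SE 0.63).

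These are low levels. The 5 genes had mean levels over the 6 libraries above those of 9.38% to 41.1% of the tested genes, with LOC113635022 lowest and LOC113635025 highest. The deposited counts advanced in steps of about 4 for each read pair, and 56.9% to 63.9% of the values from 1 to 12 in a library were exactly 4, 8 or 12. The counts are therefore also given as approximate read pairs. LOC113635022 rested on about 3 read pairs in the 3 transport libraries together and about 35 in the 3 control libraries, and LOC113635024 on about 7 and about 71. Per mapped read, the transport-to-control ratio of LOC113635022 was 0.0846, with an exact 95% interval of 0.0166 to 0.268. That of LOC113635024 was 0.0973, with an interval of 0.0378 to 0.211. Both intervals cover the counting error of the pooled reads only and leave out the spread between libraries. They also leave out that the genes were chosen on this contrast, so neither interval is a test of transport against control. The other 3 genes had about 32 to 57 read pairs after transport and about 113 to 217 in controls.

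The filter on low values bears on which copies could be described by a fitted value. All 5 genes would have passed it on their control mean alone, but 3 would have passed on their transport mean alone, LOC113635019, LOC113635023 and LOC113635025. Just inside the threshold of 0.5 stood LOC113635022, with a mean of 0.952 FPKM over all 6 libraries. Just outside stood its neighbour LOC113635026, with 0.428 FPKM.

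The order of the genes by mean level differed in part between the groups. After transport it was LOC113635025, LOC113635019, LOC113635023, LOC113635024 and LOC113635022, and only LOC113635023 and LOC113635024 were further apart than the larger SD of the pair. In controls it was LOC113635025, LOC113635024, LOC113635019, LOC113635023 and LOC113635022, and only the last pair was further apart than the larger SD. Both groups thus had the 18-like genes LOC113635025 and LOC113635022 at the 2 ends. LOC113635024 stood above LOC113635019 and LOC113635023 in controls and below both after transport, within the spread of its neighbours in controls.

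Reads of near-identical copies can be assigned to the wrong copy. How alike the sequences of these 5 genes are was not measured, and the sources used here do not say how such reads were counted. The 5 genes were therefore also summed. The sum was 3.14, 5.45 and 4.68 FPKM in the transport libraries and 19.9, 16.4 and 17.7 FPKM in the control libraries. The lowest control was thus well above the highest transport library. The means were 4.43 ± 1.18 FPKM after transport and 18.03 ± 1.77 FPKM in controls (SD, n = 3 each). The summed counts corresponded to about 39.8, 49.3 and 54.5 read pairs after transport and about 247, 147 and 168 in controls. Their log2 fold change was -2.35 (SE 0.33), and it was -1.96 without control replicate 1. In bulk skin, fewer cells that express these genes and less of their RNA per cell cannot be told apart.

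**Figure D2:**
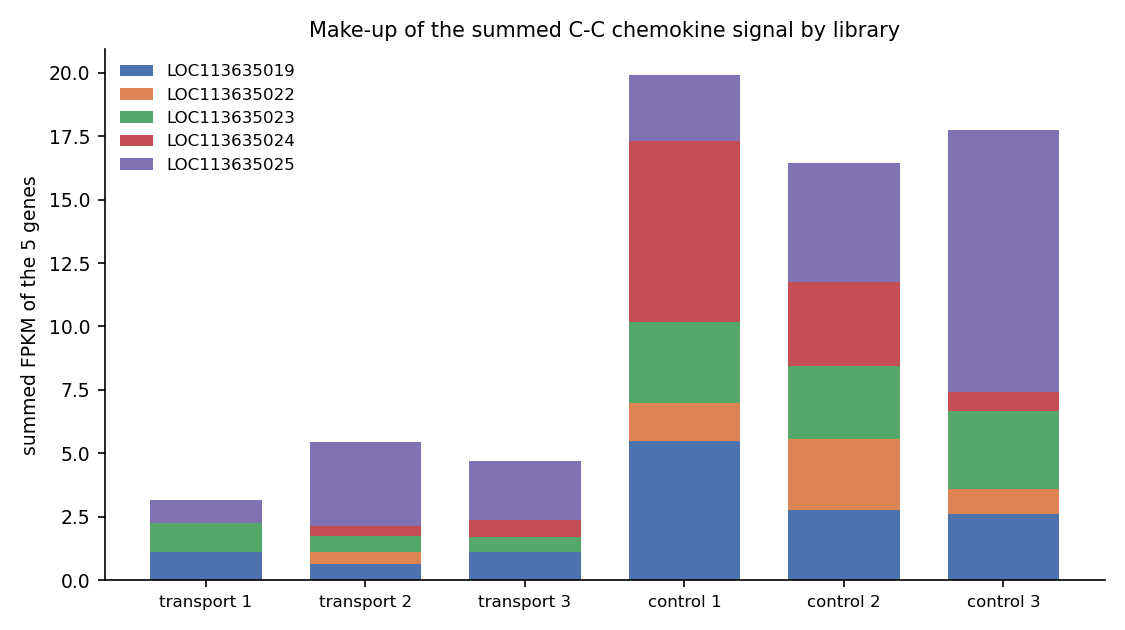
Stacked FPKM of the 5 genes in each library, with the 3 transport libraries on the left and the 3 control libraries on the right. The sums were 3.14 to 5.45 after transport and 16.4 to 19.9 in controls, and the copies that made up the sum changed from 1 control library to another.

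On the FPKM scale the coefficient of variation of the sum was 26.6% after transport and 9.79% in controls. LOC113635024 held 35.8%, 20.0% and 4.37% of the sum in control replicates 1, 2 and 3, while LOC113635025 held 13.2%, 28.6% and 58.1%. These 2 copies therefore stood in opposite order over the same 3 libraries. LOC113635023 held 16.0% to 17.7% of the sum in every control library. The near-equal control sums depended on the scale, since the TMM-scaled sums were 2.68, 5.18 and 4.16 after transport and 28.0, 16.99 and 17.01 in controls, with a coefficient of variation of 30.7% in controls.

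The make-up of the sum also varied between the transport libraries. LOC113635025 held 28.3%, 60.7% and 49.2% of it in transport replicates 1, 2 and 3. LOC113635019 and LOC113635023 held 35.7% and 36.1% in transport replicate 1, where LOC113635022 and LOC113635024 were at 0. The share of every gene overlapped between the groups. LOC113635022, at 0 in 2 of the 3 transport libraries, held 8.69% in transport replicate 2, within its control range of 5.41% to 16.96%.

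No single library was highest for all the genes. Among controls, replicate 1 was highest for LOC113635019, LOC113635023 and LOC113635024, replicate 2 for LOC113635022, and replicate 3 for LOC113635025, for which control replicate 1 was lowest. Over the 6 libraries, Pearson's r between the log2 profiles of 2 of the genes was 0.291 for LOC113635024 and LOC113635025 to 0.909 for LOC113635019 and LOC113635023. Once the group means were taken away, r was -0.793 for LOC113635019 and LOC113635025 to 0.618 for LOC113635019 and LOC113635024. These values share libraries, depth and the group difference, and are a description only.

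The chemokine run held more copies than the 5. Within 66.9 kb, from 435864 to 502779, the table lists 10 genes with the same descriptions, 7 on the minus strand and 3 on the plus strand. An additional copy, LOC113635032, lies 222.7 kb before the run and was listed at 0 in all 6 libraries, as was LOC113635021 within the run. The gaps between neighbouring copies were 950 to 8582 bases, except that LOC113635031, known by a non-coding record, lies inside the span of LOC113635028. Both lie on the minus strand, and reads from such an overlap cannot be assigned to either locus with certainty.

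The weaker copies had few reads. LOC113635026, an 18-like gene between LOC113635024 and LOC113635022, had 0, 0.340 and 0.151 FPKM after transport and 0.674, 0.806 and 0.596 FPKM in controls, and it was the 1 copy of the other 6 whose groups did not overlap. LOC113635028 was listed at 0 in every library but control replicate 3, with 0.462 FPKM. LOC113635031 was listed at 0 in all transport libraries and control replicate 1, and had 0.909 and 0.211 FPKM in control replicates 2 and 3. LOC113635030, also known by a non-coding record, had 0.179, 0 and 0.482 FPKM after transport and 0.394, 0 and 0.560 FPKM in controls, so its groups overlapped. The 6 weaker copies summed to 0.179, 0.340 and 0.634 FPKM after transport and 1.07, 1.72 and 1.83 FPKM in controls. All 11 copies together had a log2 fold change of -2.34 (SE 0.32), against -2.35 for the 5 genes.

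The genes on either side of the run had values near 0. LOC113635018, an OZF-like zinc finger gene just before the run, had a log2 fold change of 0.00 (SE 0.24), and LOC113635015, a TBC1D14-like gene just after it, had 0.21 (SE 0.24). The scaffold held 27 other genes in the table, of which 18 were tested. By the quasi-likelihood test of edgeR, adjusted over all tested genes by the Benjamini-Hochberg method, 0 of the 18 passed an adjusted p of 0.05. At an unadjusted p under 0.05, 1 of the 18 was lower and 2 were higher, against 9.14% lower and 7.72% higher over all tested genes. DESeq2 called 1 lower and 2 higher after adjustment, beside 5.13% and 4.39% of all genes with an adjusted p. limma called 0 lower and 1 higher, beside 0.123% and 0.617% of all tested genes. The median log2 fold change of the 18 was 0.34, with 6 below and 12 above 0, while that of all tested genes was -0.02. The nearest of the 3 genes past the unadjusted threshold was LOC113635035, a rock1-like gene next beyond LOC113635018, with 6.03, 10.4 and 7.25 FPKM after transport and 1.53, 1.07 and 2.26 FPKM in controls (log2 fold change 1.97, SE 0.39, adjusted p = 0.0905 by edgeR).

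**Figure D3:**
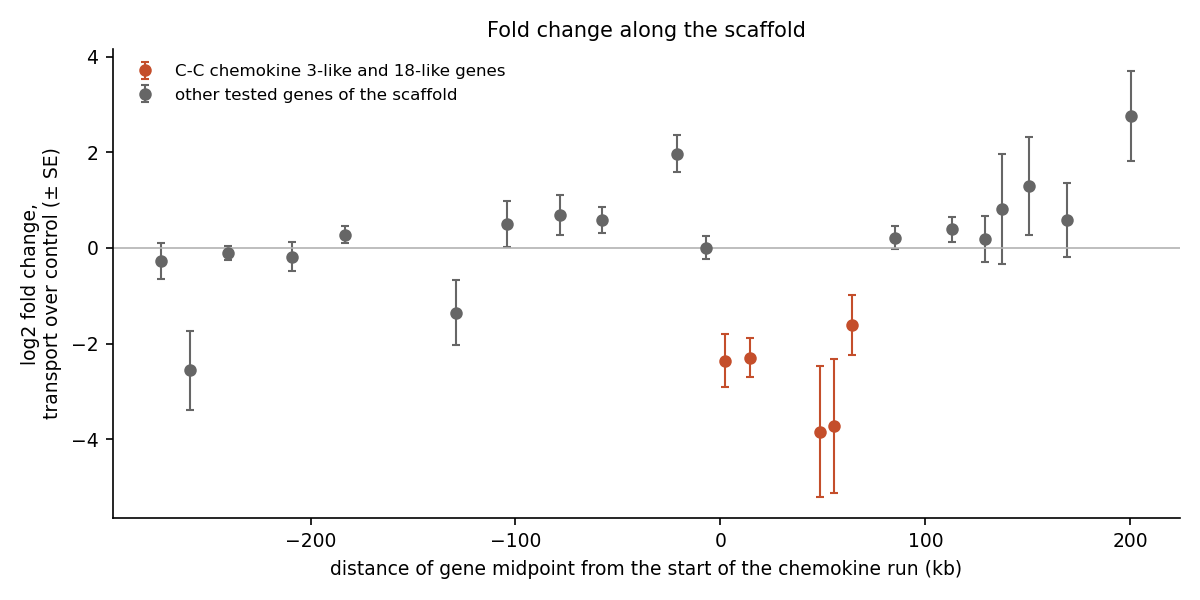
Log2 fold change of transport over control (edgeR, bars ± SE) for the tested genes of the scaffold, against the distance of each gene's midpoint from the start of the chemokine run in kb. The 5 chemokine genes (red) lay between -3.84 and -1.62, and the genes next to the run on either side (grey) were at 0.00 and 0.21.

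The one other C-C chemokine gene of the table lies on another scaffold and had groups that overlapped. LOC113633925 is CCL19-like, and mammalian CCL19 guides lymphocytes and dendritic cells through CCR7. It had 75.2, 101 and 81.0 FPKM after transport and 62.1, 36.2 and 99.1 FPKM in controls. Its level was above the summed level of the 5 genes in every library, least so in control replicate 2, with 36.2 against 16.4 FPKM. The log2 fold change was 0.07 (SE 0.37, adjusted p = 0.941 by edgeR). The difference of the 3-like and 18-like genes from this gene was not tested, since they were chosen on the contrast.

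The table held 1 chemokine of another class. In mammals CXCL14 is made constitutively by epithelia, the epidermis included. The catfish cxcl14 had 18.6, 26.3 and 20.3 FPKM after transport and 17.7, 46.6 and 47.8 FPKM in controls, so control replicate 1 was as low as the transport libraries. Its log2 fold change of -1.01 (SE 0.29) did not pass edgeR's test (adjusted p = 0.175) or limma's (adjusted p = 0.375), but passed in DESeq2 (adjusted p = 0.0240).

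Of the chemokine receptors, 3 were in the table and tested, and none of the classical C-C receptors was among them. By edgeR 0 of the 3 passed the adjusted threshold or an unadjusted p under 0.05, and DESeq2 and limma each called 0. The nearest to a C-C receptor was LOC113636595, like ACKR2, which in mammals takes up inflammatory C-C chemokines without signalling through G proteins. It had 0.380, 1.12 and 0.648 FPKM after transport and 1.33, 1.67 and 0.814 FPKM in controls (log2 fold change -1.17, SE 0.54, adjusted p = 0.328 by edgeR). Transport replicate 2 was above control replicate 3, so its groups overlapped. The CXCL12 scavenger ackr3 had 51.3, 57.1 and 54.5 FPKM after transport and 40.5, 49.9 and 42.5 FPKM in controls, with a fitted log2 fold change of -0.04 (SE 0.18). Its FPKM groups were apart with transport higher, while the TMM-scaled fit gave a value near 0. The B cell homing receptor cxcr5 had 1.20, 1.47 and 1.29 FPKM after transport and 0.406, 0.647 and 1.93 FPKM in controls (0.20, SE 0.53). Of the genes annotated to chemokine signalling downstream of the receptors, only pik3r5, a regulatory subunit of phosphoinositide 3-kinase gamma, was tested, at -0.22 (SE 0.32).

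Interleukin-1 beta and tumor necrosis factor are inflammatory cytokines that induce C-C chemokines in mammals, and 4 genes of these names were tested. By edgeR 0 passed the adjusted threshold, and the 3 interleukin-1 beta-like genes were lower at an unadjusted p under 0.05, beside 9.14% of all tested genes. The interleukin-1 beta-like LOC113635103 had 0.722, 1.85 and 2.47 FPKM after transport and 4.76, 5.26 and 10.9 FPKM in controls (log2 fold change -2.31, SE 0.52, adjusted p = 0.128 by edgeR). The other interleukin-1 beta-like genes, LOC113635105 and LOC113635102, had log2 fold changes of -3.19 (SE 0.79) and -1.85 (SE 0.62). The tumor necrosis factor-like LOC113634667 had overlapping groups, at -0.12 (SE 0.51). DESeq2 called 3 of the 4 lower, beside 5.13% of all genes with an adjusted p, and limma called 0.

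NF-κB transcription factors drive many chemokine genes in mammals, and 5 genes of that system, listed by gene symbol, were tested. By edgeR 0 passed the adjusted threshold, and 4 were lower at an unadjusted p under 0.05, beside 9.14% of all tested genes. The largest difference was that of nfkbia, which encodes the inhibitor IκBα and is itself an NF-κB target, with 81.4, 80.1 and 77.6 FPKM after transport and 111, 293 and 397 FPKM in controls (log2 fold change -1.97, SE 0.32, adjusted p = 0.0644 by edgeR). Control replicate 1 stood nearest to the transport libraries for nfkbia, whereas it was the highest control for 3 of the 5 chemokine genes. The subunit genes relb and rel had log2 fold changes of -1.06 (SE 0.25) and -0.94 (SE 0.24). The kinase gene chuk was at 0.17 (SE 0.23). The p65-like subunit gene LOC113635428 has no such symbol and was outside this list. Its groups overlapped, at 0.08 (SE 0.16). DESeq2 called 4 of the 5 lower, beside 5.13% over all genes, and limma 0, and edgeR called 1 without control replicate 1 and 1 without control replicate 3.

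**Figure D4:**
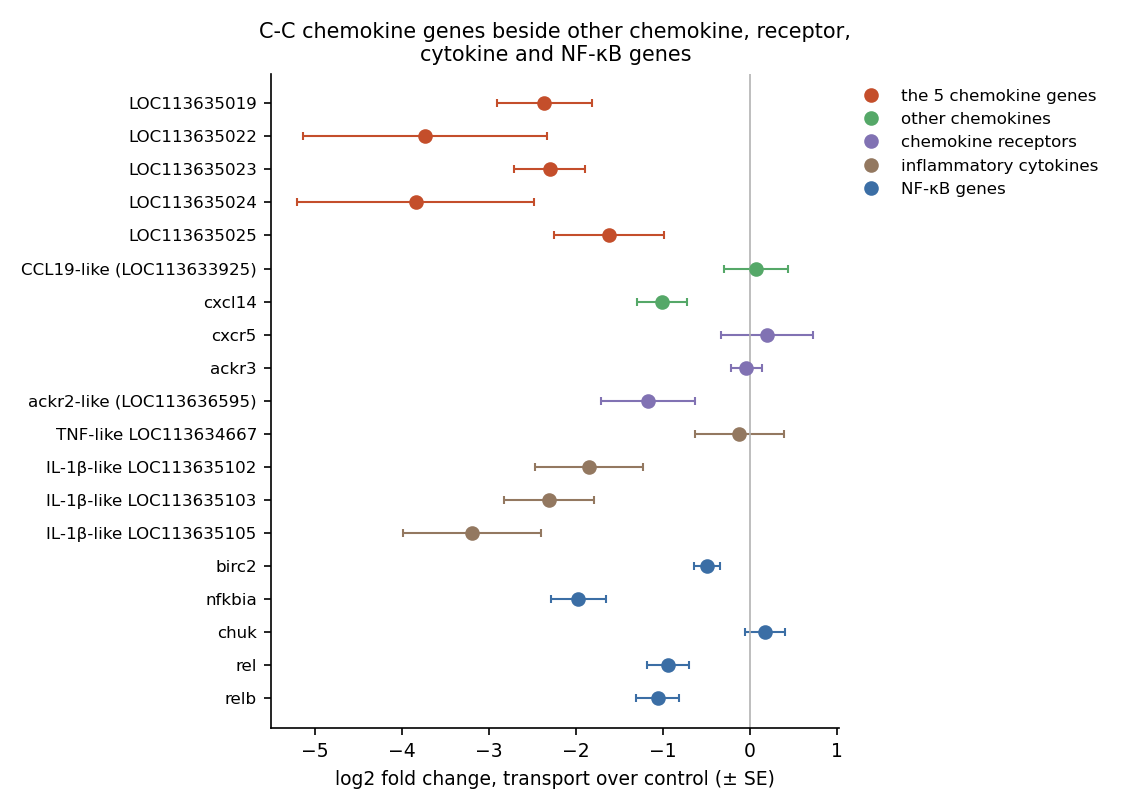
Log2 fold change of transport over control (edgeR, points, with bars of ± SE), with the 5 chemokine genes at the top. Below them are the other tested chemokines, chemokine receptors and inflammatory cytokines, and the NF-κB genes listed by symbol. The 5 genes lay between -3.84 and -1.62, the 3 interleukin-1 beta-like genes between -3.19 and -1.85, and the CCL19-like gene at 0.07.

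All copies of the scaffold are annotated to the pathways of cytokine-cytokine receptor interaction and Toll-like receptor signaling. Of the other cytokine-cytokine receptor interaction genes, 23 were tested, and by edgeR 0 passed the adjusted threshold. At an unadjusted p under 0.05, 8 of these were lower and 2 were higher, beside 9.14% and 7.72% of all tested genes, with a median log2 fold change of -0.20. The lower genes include cxcl14 and the interleukin-1 beta-like genes already counted above. The smallest p in that list belonged to rell1, a relative of the tumor necrosis factor receptors, at 0.67 (SE 0.11), and to LOC113634305, like CD40 (tumor necrosis factor receptor superfamily member 5), at -2.44 (SE 0.42). DESeq2 called 5 lower and 1 higher, beside 5.13% and 4.39% over all genes, and limma 0. Of the other Toll-like receptor signaling genes, 14 were tested, and by edgeR 0 passed the adjusted threshold. At an unadjusted p under 0.05, 5 of these were lower and 0 were higher, beside the same 9.14% and 7.72%, with a median log2 fold change of -0.11. All but akt2 (-0.38, SE 0.16) were already counted above, as the interleukin-1 beta-like genes and nfkbia. DESeq2 called 4 lower, beside 5.13% over all genes, and limma 0. Those 4 were again the interleukin-1 beta-like genes and nfkbia. In the other direction the smallest p belonged to traf6, an adaptor of Toll-like receptors, at 0.30 (SE 0.18).

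Markers of leukocytes, which are the main known source of these chemokines in mammals, were set beside the 5 genes. For macrophages and monocytes 4 of 7 listed genes in the table were tested, the C1q A-like, B-like and C-like genes and spi1, and their log2 fold changes were 0.13 to 0.19. The summed FPKM of these 4 tested genes was 101 to 210 after transport and 62.9 to 152 in controls, so it overlapped and was not lower after transport. For T cells and NK-like cells all 3 genes were tested, with il2rb at -0.79, LOC113636643 (LCK-like) at -0.48 and itk at -0.18, and a summed FPKM of 24.0 to 37.3 after transport and 20.4 to 54.5 in controls. By edgeR 0 genes of either list passed the adjusted threshold or an unadjusted p under 0.05, and DESeq2 and limma called 0. Of the 7 B cell genes in the table only 1 was tested, the CD22-like LOC113636359. It had 6.26, 0.0469 and 3.81 FPKM after transport and was listed at 0 in all control libraries. This gene was higher at an unadjusted p under 0.05 but not after adjustment in edgeR (adjusted p = 0.195) or limma (adjusted p = 0.207). DESeq2 called it higher. The table used here held no gene of the neutrophil, dendritic cell or pan-leukocyte lists, so whether these cells differed was not tested.

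Other tissue of the sample also moved between libraries. Of 6 tested epidermal genes, B-cadherin-like LOC113634238 was lower (-0.79, SE 0.21) and evpl (1.54, SE 0.42) and mucin-2-like LOC113635236 were higher at an unadjusted p under 0.05, and by edgeR 0 passed the adjusted threshold. Over all tested genes, 9.14% were lower and 7.72% higher at that unadjusted threshold. DESeq2 called 1 lower and 2 higher of the epidermal genes, beside 5.13% and 4.39% of all genes with an adjusted p, and limma 0. The mucin-2-like gene had 8.59, 0.347 and 5.66 FPKM after transport and 0.0384, 0 and 0.0224 FPKM in controls. The dermal gene sparc, the one tested of its list, and LOC113636033, a skeletal muscle myosin light chain-like gene, were highest in control replicate 1, the library that was also highest for 3 of the 5 chemokine genes. The other 4 genes of the skeletal muscle list were highest in other libraries, but LOC113636033, with 9075 FPKM in control replicate 1, made up most of the muscle sum. Among the other genes, LOC113635959 is described as like cardiac muscle isoforms of troponin T. The muscle genes summed to 2120, 3720 and 2761 FPKM after transport and 9665, 4332 and 1699 FPKM in controls. The dermal gene sparc alone had 853, 2111 and 1322 FPKM after transport and 4408, 282 and 1363 FPKM in controls. By edgeR 0 of these 6 dermal and muscle genes passed the adjusted threshold or an unadjusted p under 0.05, and DESeq2 and limma called 0. The part of tissue make-up in the chemokine values was not tested.

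The profiles of the 1615 other tested genes were compared with the mean of the 5 standardized profiles. Pearson's r of log2(FPKM + 0.5) over the 6 libraries was used, which compares the shape of profiles and not the size of a change. The 5 genes most like the mean were named. They were LOC113635655, like hyaluronan and proteoglycan link protein 3 (r = 0.962), the ribosomal protein genes rpl23 (0.95) and rpl39 (0.928), tyrp1, which encodes a melanin synthesis enzyme (0.931), and the notch1-like LOC113634548 (0.925). In all, 9 genes had an r above 0.9. The link protein-like LOC113635655 had 0.552, 2.29 and 0.988 FPKM after transport and 8.10, 5.74 and 6.51 FPKM in controls. The pigment cell gene tyrp1 had 0.511, 1.49 and 0.828 FPKM after transport and 6.18, 4.80 and 2.07 FPKM in controls. The fitted log2 fold changes were -2.76 for LOC113635655, -2.61 for tyrp1 and -1.74 for LOC113634548, but only -0.52 for rpl23 and -0.56 for rpl39. Within the groups the likeness was uneven, since r of the deviations from the group means was 0.946 for tyrp1 and -0.06 for LOC113634548. All points share the 6 libraries and the group difference, and r is a description only.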

How the data were processed

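The authors isolated poly(A) RNA, sequenced paired reads, trimmed them with Cutadapt and used HISAT and StringTie, both also named in the submitters' processing notes. Their versions, strandedness and the handling of multi-mapped reads are not stated in the sources used here. The study is at odds on the genome, with a human one in its methods and that of yellow catfish in its results, and the build is not known here. The scaffold and gene names of the table belong to Tachysurus fulvidraco, and its coordinates were kept. The deposited table holds whole-number counts per gene, not normalized, and FPKM values, both made by the authors. Of its 2452 rows 1 was incomplete and left out, and 12 columns of per-sample values that match no sample here were not used. Counts summed to 3632651 to 4487002 per library. These sums were far below the sequencing depth that the FPKM values imply, so the deposited rows may hold only part of each library. Shares of all tested genes, TMM factors and the absence of a gene therefore refer to these rows, not to all genes expressed in skin.

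The members, the gene lists and the markers were chosen with earlier results of these data known. Genes averaging 0.5 FPKM or more were fitted in R 4.3.3 with edgeR 4.0.16 (quasi-likelihood test, TMM factors on the mapped reads that the study gives, condition as the only term, Benjamini-Hochberg adjustment over 1620 genes). TMM factors were 1.05 to 1.17 after transport and 0.712 to 1.04 in controls. Pairs of libraries of a group differed far beyond sampling noise, so none was treated as a duplicate.

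Alternatives were DESeq2 1.42.0, limma 3.58.1 on log2(FPKM + 0.5), pseudocounts of 0.1 and 1, other scalings and filters, a replicate block and leaving out each library. For limma the deposited FPKM were used without TMM factors. Counts divided by 4 and another library size were added after seeing the data.

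Named genes were the 5 members, all other C-C chemokine genes, all tested chemokines, chemokine receptors and inflammatory cytokines, from other lists those of smallest p in each direction, and the 5 genes of most similar profile. Marker genes were given as lists. Other genes beside the run, LOC113635035 and LOC113635428 were named after their values were seen.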

Additional observations from a re-analysis of the deposited data

How the results depend on the processing

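The log2 fold changes of the 5 chemokine genes had 88 values under the alternatives, and all 88 were below 0. Of these, 70 moved by less than the spread between replicates and 18 by more. They ranged from -2.64 to -1.19 for LOC113635019, -4.72 to -1.22 for LOC113635022, -2.59 to -1.20 for LOC113635023, -4.62 to -1.58 for LOC113635024 and -2.09 to -1.04 for LOC113635025, and the values nearest to 0 came with a pseudocount of 1 FPKM. No value is given for LOC113635022 with a mean FPKM of at least 1 or without transport replicate 2. The genes were chosen with this contrast known and the alternatives reuse the same libraries, so the shared sign is only a description. Some settings could hardly move a value. Summed counts as library sizes and median-ratio scaling shifted the median log2 fold change of all genes by 0 and -0.002. The summed value of -2.35 was -1.94 in limma, -1.98 without TMM factors, and -2.52 to -1.96 when each library was left out. Leaving out the TMM factors moved the median log2 fold change of all genes by 0.30, and limma by 0.31.

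Over all tested genes edgeR called 4 lower and 6 higher. DESeq2 called 83 lower and 71 higher. The limma fit, which had no TMM factors, called 2 and 10, and edgeR without TMM factors 0 and 11. At an unadjusted p under 0.05 the numbers were 54 and 259 for limma, and 66 and 225 for edgeR without TMM factors. Leaving out each library gave 0 to 35 lower and 0 to 30 higher, the most without control replicate 3. Same-numbered libraries did not clearly deviate together (r = -0.170, 0.078 and 0.099, against -0.216 to 0.186 for the other pairings). No pairing by number was seen, but so few libraries cannot show that there was none. With the replicate block 0 were called lower and 0 higher, with 110 and 105 at an unadjusted p under 0.05. Outside the chemokine copies, DESeq2 called 1 other chemokine, 3 inflammatory cytokines, 4 NF-κB genes, 5 cytokine receptor interaction genes and 4 Toll-like receptor genes lower, and 1 cytokine receptor interaction gene higher, where edgeR called 0. These lists share genes, so the calls are not separate. All 3 inflammatory cytokines, which are interleukin-1 beta-like, were also in both pathway lists. Counted again were cxcl14 among the cytokine receptor interaction genes and nfkbia among the Toll-like receptor genes. Leaving out a library gave 0 to 1 lower for the NF-κB and Toll-like receptor genes and 0 to 1 higher for the cytokine receptor interaction and Toll-like receptor genes, the 1 each time without control replicate 1 or 3. Of the 5 genes of most similar profile, 2 were shared with Spearman's rho and 0 with deviations from the group means. The causes were not tested. Depth limits LOC113635022 and LOC113635024, which had 0 to 3.25 and 0 to 4.5 read pairs in the transport libraries.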
